A study of Mus musculus with 23 samples.

Results

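The clustered protocadherins were followed through RNA-seq counts of astrocytes isolated from the mouse cerebral cortex. Members were taken by symbol, namely Pcdha, Pcdhb, Pcdhga, Pcdhgb and Pcdhgc followed by a number, plus Pcdhac1 and Pcdhac2, which gave 59 of the 24411 genes in the count table: 15 alpha, 22 beta and 22 gamma members. The 23 libraries came from male mice at P70 and fell into 4 groups. ConAstro (n = 4) were Cre-negative littermate controls that carried floxed Aldh7a1 alleles, and cKOAstro (n = 7) were Aldh7a1 flox/flox; Slc1a3-CreER/+ mice, in which the Slc1a3 promoter drove the inducible Cre in astrocytes and their relatives. The diet arms had the same genotypes and received sulforaphane (SFN), an inducer of antioxidant enzymes, in the food from P21, giving 5 libraries of SFN-fed ConAstro and 7 of SFN-fed cKOAstro. All animals, controls included, were given tamoxifen's active metabolite at P3 to P4. Cells were captured with magnetic beads against ACSA-2, a surface antigen of astrocytes, and nothing in the labels says which libraries shared a litter.

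Clustered protocadherins are cell surface cadherins that bind their own kind on a touching membrane. Each alpha and gamma member is made from its own promoter and its own large first exon, which is spliced to constant exons at the end of the cluster, whereas beta members are single-exon genes with no constant part. Neurons switch on small, partly random sets of these promoters, with CTCF, cohesin and DNA methylation taking part in the choice, and this diversity lets a neuron tell its own branches from those of others. The last members of the alpha and gamma clusters, called C-type, are not chosen in that random way. Astrocytes are also known to carry gamma protocadherins, which serve contacts between astrocytes and neurons.

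In the GENCODE annotation of GRCm38 (mm10), all members with a gene model lay on the plus strand of chromosome 18, with the alpha cluster at chr18:36930184-37187661, the beta cluster at chr18:37264938-37524479 and the gamma cluster at chr18:37661793-37841873. Aldh7a1, the gene deleted in cKOAstro, lay on the same chromosome, 18.7 Mb beyond the gamma cluster. The constant exons covered 2860 bases in the alpha and 2116 bases in the gamma cluster, and the exons that belong to a single member had a median of 2478 bases in alpha and 2604 in gamma. Because the counting tool leaves out reads from exons that several genes share, the alpha and gamma counts came from these first exons. Beta genes had a median of 3714 bases of their own exon. Members of a cluster resemble each other in sequence, and how reads that fit several members were divided cannot be told from counts, so that the level of single members is less certain than that of a cluster.

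Library totals ran from 46890715 to 391701247 counts, and any 2 libraries of a group differed far beyond sampling noise (lowest chi-square per degree of freedom 42.4). In each library the alpha members held 187 to 1735 counts, the beta members 3685 to 36730 and the gamma members 31776 to 297614. Aldh7a1 went against 2 labels: it stood at 55.7 CPM (counts scaled to library size with TMM factors) in the library labelled replicate 1 of SFN-fed ConAstro, and at 222 CPM in the one labelled replicate 2 of SFN-fed cKOAstro. The other control libraries lay between 177 and 226 CPM and the other cKOAstro libraries between 43.0 and 77.2 CPM. Slc1a3, whose locus carries the Cre, went against the same 2 labels, at 2100 and 4436 CPM. The library labelled cKOAstro replicate 2, from a male by its label, had 1541 CPM of Xist and 0.0077 CPM of Ddx3y, a gene of the Y chromosome. The other libraries had at most 0.706 CPM of Xist and 83.6 to 114 CPM of Ddx3y, so this library went against its label of sex. Each comparison below is also given without the libraries among these 3 that it contains. The summed markers of astrocytes lay between 15556 and 28539.7 CPM and those of oligodendrocytes between 21959 and 56876 CPM, so the preparations held other cells beside astrocytes. In such bulk libraries, fewer cells of a type and less RNA per cell cannot be told apart.

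Gamma members made up most of the clustered protocadherin counts in each library. Divided by the length of a member's own exons and averaged over 23 libraries, levels had a median of 4.37 CPM per kb in the gamma cluster, 0.767 in the beta cluster and 0.0845 in the alpha cluster. The lowest gamma member, Pcdhgb8 (annotated as a polymorphic pseudogene), reached 1.22 CPM per kb and stood above the beta median.

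**Figure D1:**
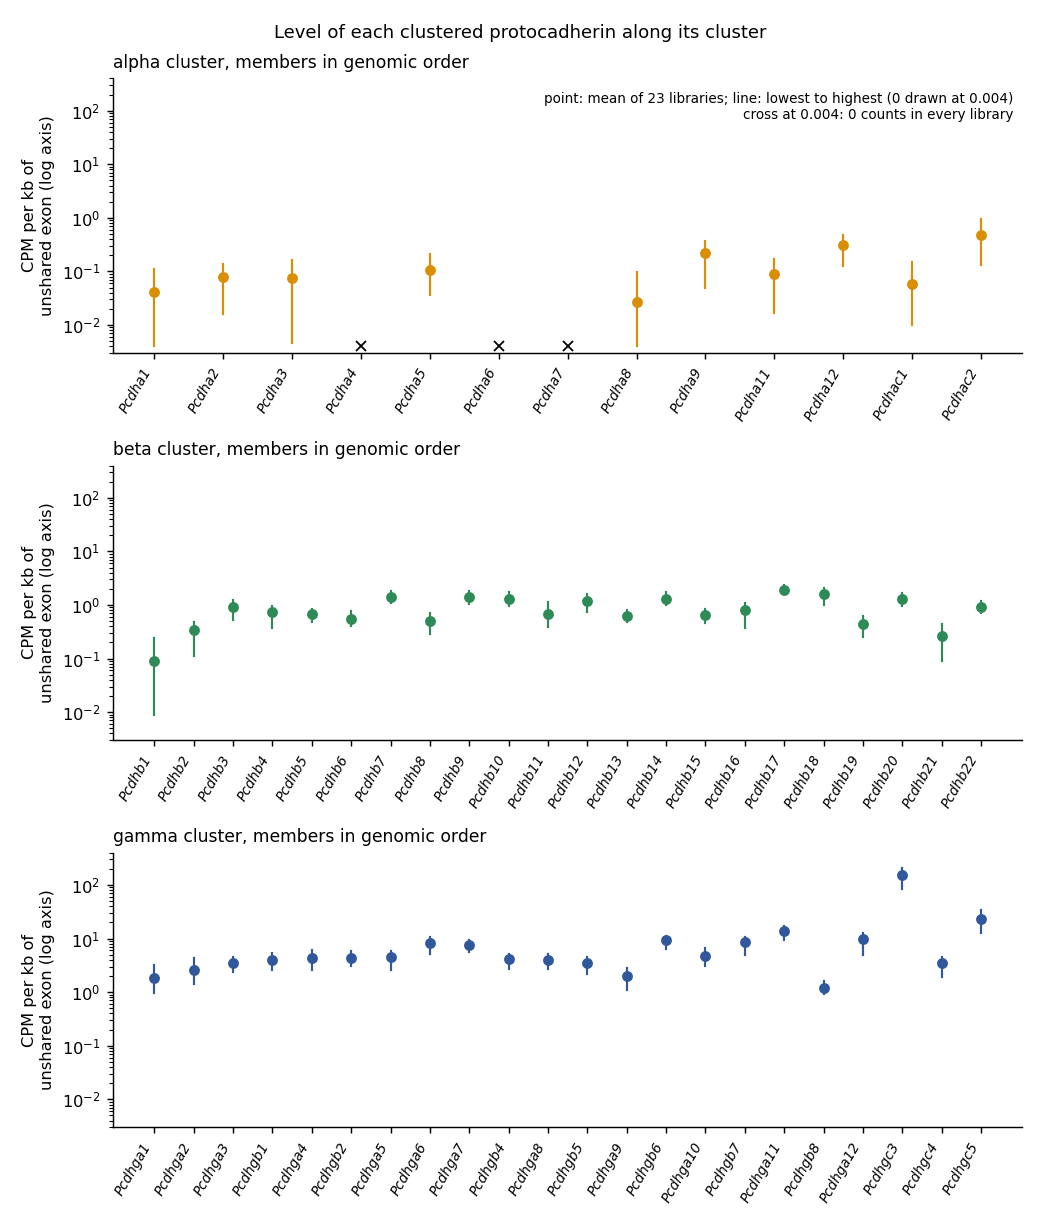
Level of each member in CPM per kb of its own exons (logarithmic axis), with members in genomic order within the alpha, beta and gamma clusters; points are means of 23 libraries and lines run from the lowest to the highest library. Pcdhgc3 stands at 157 CPM per kb, while Pcdha4, Pcdha6 and Pcdha7 (crosses) had 0 counts in every library; Pcdha10 and Pcdha7-g, which had no exon model, are not drawn.

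Pcdhgc3, a C-type gamma member, was the most abundant clustered protocadherin in 23 of 23 libraries. Its level averaged 403 CPM, or 157 CPM per kb (SD 29.2), and it alone held 54.0% of the gamma counts, between 47.5% and 57.3% in single libraries. In ConAstro it measured 429.6, 427, 358 and 435 CPM. In SFN-fed ConAstro it measured 369.8, 386, 505, 526 and 408 CPM. The cKOAstro libraries ran from 330.4 through a median of 409 to 523 CPM, and the SFN-fed cKOAstro libraries from 214 through a median of 362 to 521 CPM. The 4 groups overlapped, and the 2 lowest libraries, at 214 and 288 CPM, were SFN-fed cKOAstro replicates 4 and 1.

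Pcdhgc5, another C-type member, came second with 23.6 CPM per kb (SD 5.34) and lay above the third, Pcdhga11 (13.9 CPM per kb, SD 1.87), in 22 of 23 libraries. Pcdhga11 in turn lay above Pcdhga12 (9.69 CPM per kb) in 23 of 23 libraries. Below these, neighbours in the order were often not separated: Pcdhga12 was above Pcdhgb6 in 14 of 23 libraries and Pcdhgb7 was above Pcdhga6 in 13 of 23. Pcdhga7 (7.53 CPM per kb) was above the next member, Pcdhga10 (4.76), in 23 of 23 libraries. From Pcdhga10 to Pcdhga3 (3.49 CPM per kb), each member exceeded the next in 11 to 19 of 23 libraries. The C-type member Pcdhgc4, known for its part in neuron survival, was only the seventeenth of 22 at 3.51 CPM per kb (SD 0.630).

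The shares of Pcdhgc3 and of the sub-families in the gamma cluster were alike in the groups. Pcdhgc3 took 53.8% ± 0.27 of gamma counts in ConAstro and 54.2% ± 2.59 in cKOAstro (SD over 4 and 7 libraries). With SFN the share was 53.1% ± 2.53 in ConAstro and 54.5% ± 3.30 in cKOAstro (SD over 5 and 7 libraries). The 3 C-type members together took 63.8% ± 1.11, 63.7% ± 2.48, 63.2% ± 2.38 and 63.8% ± 3.59 in the same order. The 12 A-type members took 23.6% to 24.7% and the 7 B-type members 11.8% to 12.7% of gamma counts as group means. These differences were smaller than the SD within at least one of the groups. Shares of some single members differed by more. Pcdhga1 took 0.736% ± 0.0969 in SFN-fed ConAstro and 0.554% ± 0.0766 in SFN-fed cKOAstro (SD). Pcdhgb2 took 1.31% ± 0.0911 in ConAstro and 1.63% ± 0.219 in SFN-fed ConAstro (SD).

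Beta members lay between the other clusters in level. Pcdhb17 led with 1.92 CPM per kb (SD 0.179) and ranked first in 21 of 23 libraries, followed by Pcdhb18 (1.58, SD 0.236) and Pcdhb9 (1.44, SD 0.197). Pcdhb17 exceeded Pcdhb18 in 22 of 23 libraries, but Pcdhb9 exceeded the fourth member, Pcdhb7, in only 12 of 23. Pcdhb17 also moved little between groups, with means of 8.68 ± 0.871 CPM in ConAstro, 8.79 ± 0.405 in cKOAstro, 9.42 ± 0.977 in SFN-fed ConAstro and 8.94 ± 1.06 in SFN-fed cKOAstro (SD). Pcdhb1, the first gene of the cluster, was the lowest beta member at 0.0899 CPM per kb and lay below Pcdhb21 in 23 of 23 libraries.

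The alpha cluster was close to the limit of detection. Pcdhac2, a C-type member, led with 0.480 CPM per kb (SD 0.199), ranked first in 20 of 23 libraries and held 33.3% of the alpha counts on average. Pcdha12 (0.306 CPM per kb, SD 0.0962) and Pcdha9 (0.224, SD 0.0833) followed, and Pcdha12 exceeded Pcdha9 in 16 of 23 libraries. The other C-type member, Pcdhac1, averaged 0.15 CPM.

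Pcdha4, Pcdha6 and Pcdha7 had 0 counts in all 23 libraries, where a count of 0 allows up to 3 counts per library. RefSeq holds read-through genes that start beside the same first exons and run to the end of the gamma cluster. The deposited counts include genes of these names, so the annotation used for counting held them, although their bounds in it are not given. Reads over sequence that they share with a first exon would have been left out. How many were lost was not tested, so the zeros do not show that these promoters were silent. The read-through genes themselves had 3, 4 and 1 counts in total, the last being the member Pcdha7-g.

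Some members varied more between libraries than others. The biological coefficient of variation, edgeR's estimate of the spread beyond counting error, had a median of 0.175 over the 22 gamma members, against 0.130 for the 12476 other genes in their range of levels. For the 22 beta members the median was 0.189 against 0.268, and for 11 alpha members 0.386 against 0.404. The beta median lay below and the gamma median above that of the other genes in these ranges, as a description of these libraries. The ranges ran from a log2 CPM of −1.98 to 3.51 for beta and from 1.57 to 8.66 for gamma. The other genes were not matched to the members within a range. The medians therefore cannot say whether members vary more or less than genes of like level.

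The summed gamma level varied most within SFN-fed cKOAstro. Gamma members summed to 801, 790.2, 669 and 805 CPM in ConAstro and to 678, 768, 909.9, 960.4 and 808 CPM in SFN-fed ConAstro. They ran from 644 through a median of 741 to 933 CPM in cKOAstro, and from 451 through 652 to 912 CPM in SFN-fed cKOAstro. The lowest 2 of the 23 libraries, SFN-fed cKOAstro replicates 4 and 1, were in one group with the third highest, replicate 3 at 912 CPM.

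The beta members summed to 83.2 ± 7.08 CPM in ConAstro, 83.9 ± 6.24 in cKOAstro, 92.8 ± 8.22 in SFN-fed ConAstro and 79.5 ± 10.5 in SFN-fed cKOAstro (SD). The alpha members summed to 3.83 ± 1.09, 4.11 ± 0.310, 5.46 ± 1.32 and 3.73 ± 1.26 CPM in the same order. In each cluster the groups overlapped.

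**Figure D2:**
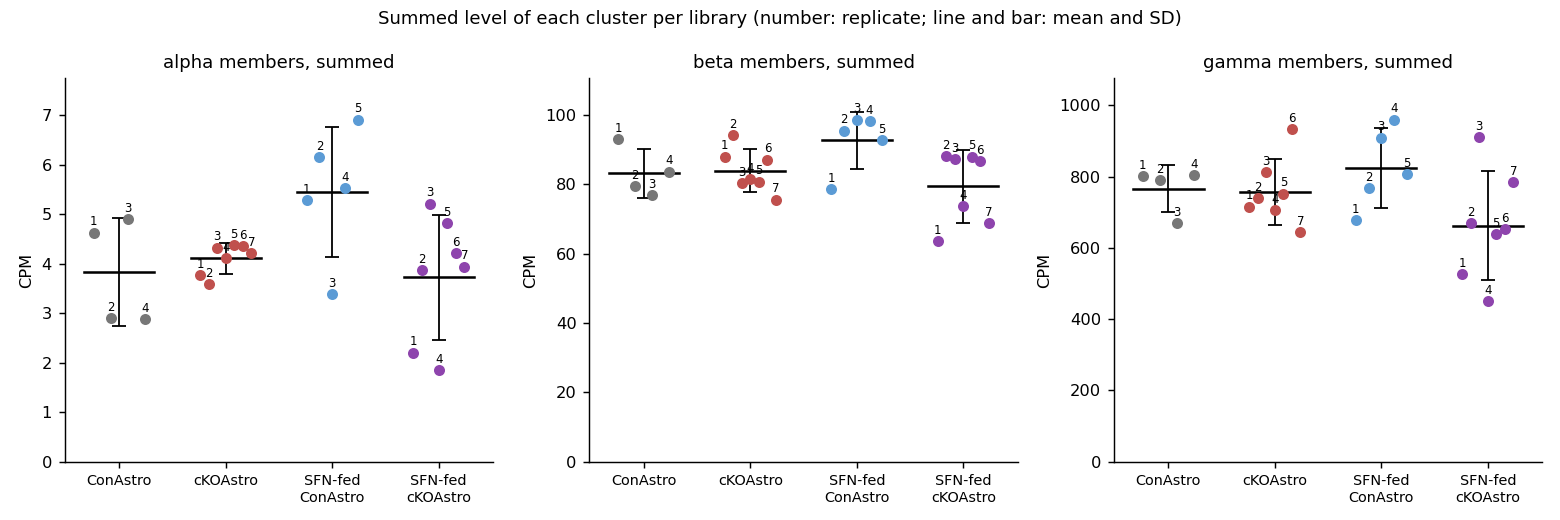
Summed CPM of the alpha, beta and gamma members in each library (points, with the replicate number), by group, with the mean (line) and SD (bar); all axes start at 0. In each panel the groups overlap, and SFN-fed cKOAstro has the widest gamma range, from 451 to 912 CPM.

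Fold changes were tested with edgeR's quasi-likelihood test over all genes that passed the filter on low counts, with Benjamini-Hochberg adjustment. All 22 beta and all 22 gamma members were tested in each comparison. Of the alpha members, 10 were tested in each comparison of 2 groups and 11 in the interaction, which added Pcdha8. No member passed an adjusted p of 0.05 in any of the 6 comparisons, so the comparisons below are described by sizes and by the count with an unadjusted p under 0.05, beside the same count over all genes tested. SFN-fed cKOAstro was set against 3 other groups, and ConAstro and the other groups were likewise used more than once, so that the comparisons share libraries.

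**Figure D3:**
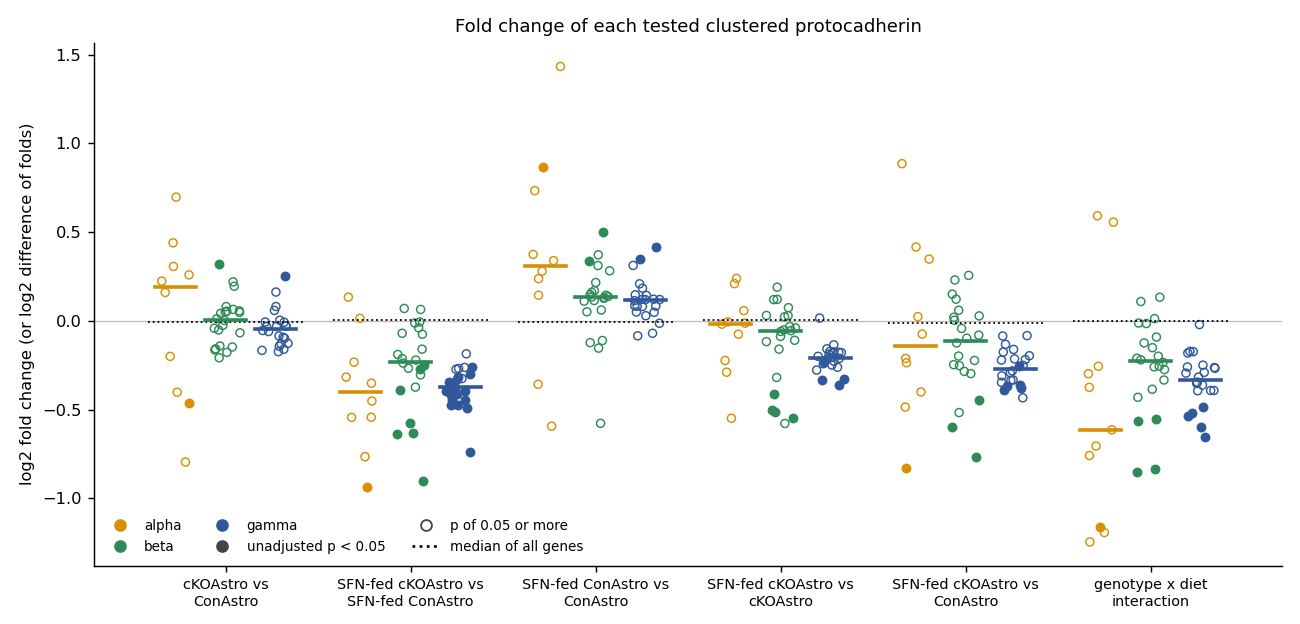
Log2 fold change of every tested alpha, beta and gamma member in 5 comparisons of groups, and the log2 difference of folds for the interaction (right); filled points had an unadjusted p under 0.05, thick bars are cluster medians and dotted lines the median of all genes tested. The gamma members lie below 0 throughout in the comparison of SFN-fed cKOAstro with SFN-fed ConAstro (median −0.37) and around 0 in cKOAstro against ConAstro (median −0.04).

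Without SFN, deletion of Aldh7a1 went with little difference in clustered protocadherins. By series of library names, all ConAstro libraries were n143, and the cKOAstro libraries were n141, n146 or Astro. These groups shared no series, so genotype and series cannot be told apart here. Library totals were 74771451 to 84049525 counts in ConAstro and 107847897 to 391701247 in cKOAstro. In cKOAstro against ConAstro, 3 of 54 tested members (5.6%) had an unadjusted p under 0.05, against 3.74% of all genes (1.71% higher and 2.03% lower), and 0 passed the adjusted threshold, against 0.023% of all genes. The fold change was above 0 for 12 of 22 beta and 5 of 22 gamma members, against 47.6% of all genes. The median log2 fold change was 0.19 over 10 alpha members, 0.01 over the beta members and −0.04 over the gamma members, where that of all genes was −0.01. By sub-family, the medians were −0.07 for gamma A-type, −0.01 for gamma B-type and −0.03 for the 3 gamma C-type members.

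The gamma B-type member Pcdhgb7 had the smallest p of this comparison. It measured 22.9, 20.2, 20.7 and 19.6 CPM in ConAstro and ran from 22.8 through a median of 24.4 to 27.4 CPM in cKOAstro. The groups met at their edges, since the lowest cKOAstro library lay just under the highest ConAstro library. Its log2 fold change was 0.25 ± 0.071 (SE; unadjusted p = 0.00415, adjusted p = 0.981).

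Pcdhb5 and Pcdha10 were the other members with an unadjusted p under 0.05. Pcdhb5 measured 2.26, 1.74, 1.81 and 2.02 CPM in ConAstro and 1.92 to 2.93 CPM (median 2.34) in cKOAstro, a log2 fold change of 0.32 ± 0.14. Pcdha10 measured 0.430, 0.339, 0.318 and 0.371 CPM in ConAstro and 0.202 to 0.331 CPM (median 0.248) in cKOAstro, a log2 fold change of −0.46 ± 0.21. The 2 groups overlapped for both genes. Next within their clusters came Pcdha5 (−0.80 ± 0.37), Pcdhb19 (0.22 ± 0.14) and Pcdhga10 (−0.16 ± 0.088).

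Pcdhgc3 had a log2 fold change of −0.01 ± 0.11, Pcdhgc4 of −0.03 ± 0.12 and Pcdhgc5 of −0.10 ± 0.15, none beyond its error. Without the library labelled cKOAstro replicate 2, the gamma median was −0.03 and 3 members had an unadjusted p under 0.05, where 3.72% of all genes did. That count was 1 without ConAstro replicate 2 (2.84% of all genes), cKOAstro replicate 3 (3.15%) or cKOAstro replicate 5 (3.76%). With the length score described further on as a covariate it was also 1 (3.92%). Endothelial markers were lower in 8 of 8 cases here (median −0.48, 4 at an unadjusted p under 0.05), and their part was not tested.

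On the SFN diet, members lay lower in cKOAstro than in ConAstro. By series, the SFN-fed ConAstro libraries were n145, n147 or Astro, and the SFN-fed cKOAstro libraries n143, n147 or Astro. The only Astro library of SFN-fed ConAstro was replicate 1, which went against its label. In n147, gamma members summed to 912 CPM in SFN-fed cKOAstro replicate 3, and to 960 and 808 CPM in SFN-fed ConAstro replicates 4 and 5. Genotype and series overlap in part here and cannot be fully told apart. In this comparison 25 of 54 tested members (46.3%) had an unadjusted p under 0.05 and all 25 were lower, against 20.3% of all genes in either direction and 8.89% lower. They were 17 of 22 gamma, 7 of 22 beta and 1 of 10 tested alpha members. The fold change was below 0 for 22 of 22 gamma members (median −0.37, from −0.74 to −0.19), for 20 of 22 beta members (median −0.23) and for 8 of 10 tested alpha members (median −0.40), where 51.2% of all genes lay above 0 and their median was 0.01. No member passed the adjusted threshold, as was true of all genes tested (0%), and the lowest adjusted p of a member was 0.195. DESeq2 called 3 members and 2.2% of all genes, whereas limma-voom, weighting each library by its quality, called 22 members (17 of them gamma) and 26.4% of all genes.

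Pcdhb19 had the smallest p and was the only tested member whose groups did not overlap in this comparison, where 0.366% of all genes lay wholly lower. It measured 3.50, 3.27, 3.47, 4.06 and 4.53 CPM in SFN-fed ConAstro. Among SFN-fed cKOAstro it ran from 1.83 through a median of 2.32 to 3.13 CPM. Its log2 fold change was −0.63 ± 0.16 (SE; unadjusted p = 0.00146, adjusted p = 0.195), and over 24 settings of the analysis it lay between −0.70 and −0.37 with an adjusted p between 0.0123 and 0.926.

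Pcdhb21 came next. It measured 1.02, 1.69, 1.57, 1.32 and 1.86 CPM in SFN-fed ConAstro and 0.376 to 1.14 CPM (median 0.833) in SFN-fed cKOAstro. Replicate 1 of SFN-fed ConAstro alone lay below the highest cKOAstro library. The log2 fold change was −0.90 ± 0.24 (unadjusted p = 0.0028).

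Among gamma members, Pcdhga1 and Pcdhga10 had the smallest p. Pcdhga1 measured 4.16, 6.23, 6.05, 8.12 and 6.02 CPM in SFN-fed ConAstro and 2.46 to 4.99 CPM (median 3.78) in SFN-fed cKOAstro, a log2 fold change of −0.74 ± 0.21. Pcdhga10 measured 11.3, 14.2, 14.5, 17.3 and 16.0 CPM in SFN-fed ConAstro and 8.17 to 13.0 CPM (median 10.6) in SFN-fed cKOAstro, a log2 fold change of −0.47 ± 0.14. For both, replicate 1 of SFN-fed ConAstro lay among the cKOAstro libraries and the other 4 lay above them.

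The most abundant gamma members also lay below 0. Pcdhga11 had a log2 fold change of −0.33 ± 0.11 and Pcdhgc5 of −0.45 ± 0.19, both with an unadjusted p under 0.05. Pcdhgc3 (−0.27 ± 0.18) and Pcdhgc4 (−0.33 ± 0.18) did not reach it. A-type members had 11 of 12 with an unadjusted p under 0.05, B-type members 5 of 7 and C-type gamma members 1 of 3, and the medians of these sub-families were −0.39, −0.30 and −0.33.

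Pcdhac2 was the alpha member with the smallest p. It measured 2.31, 2.37, 1.22, 2.20 and 2.83 CPM in SFN-fed ConAstro and 0.406 to 2.13 CPM (median 1.14) in SFN-fed cKOAstro. The log2 fold change was −0.94 ± 0.32. Pcdhac1 had −0.77 ± 0.38, and its groups overlapped.

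**Figure D4:**
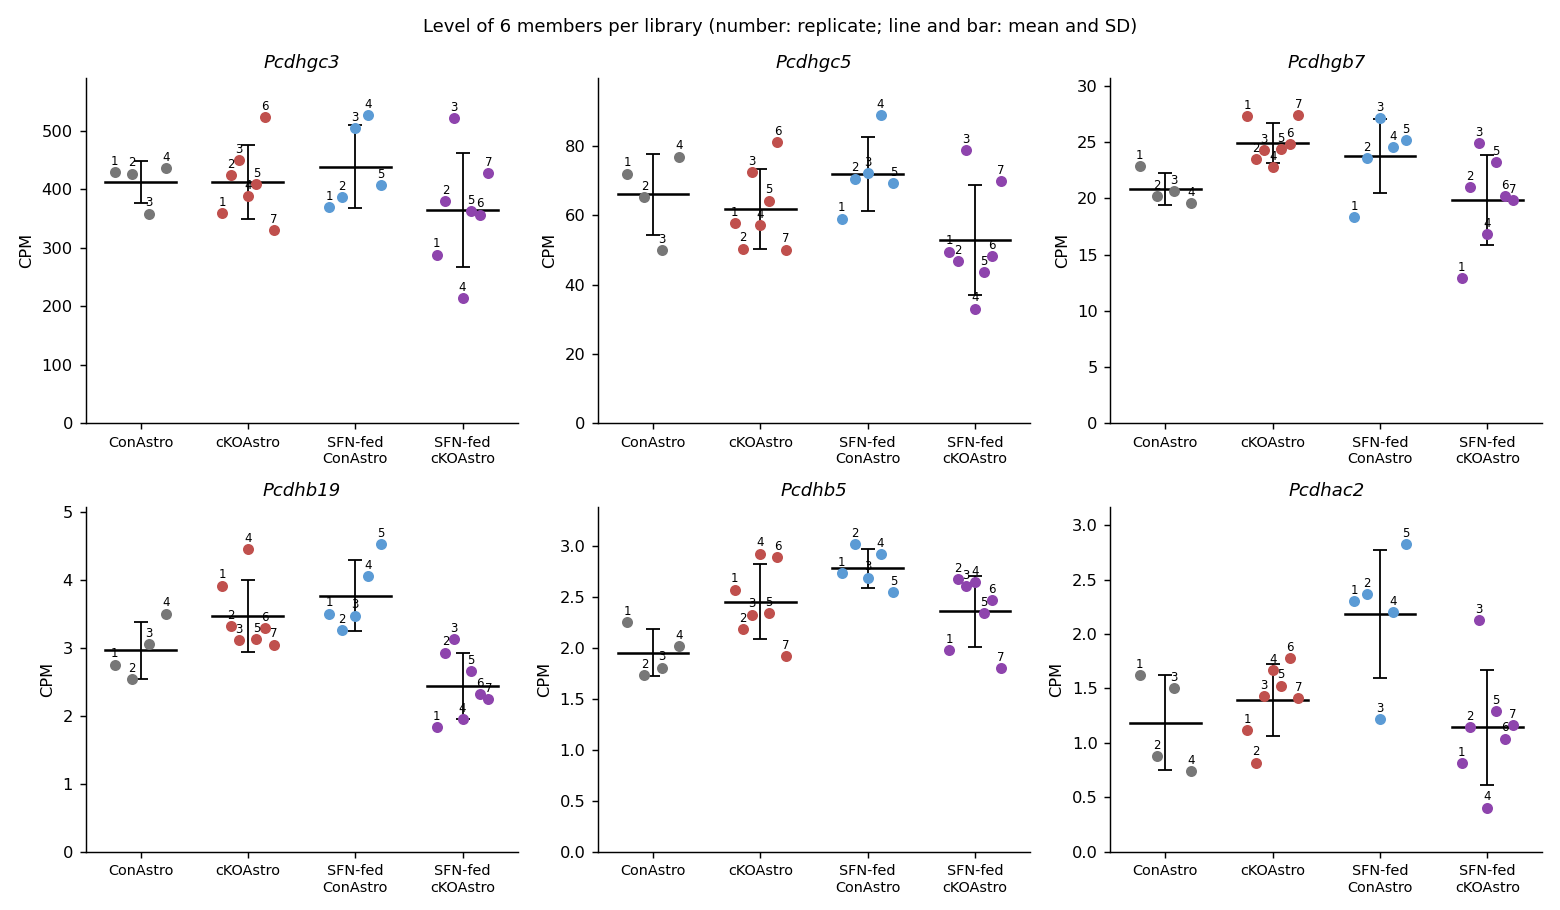
CPM of Pcdhgc3, Pcdhgc5, Pcdhgb7, Pcdhb19, Pcdhb5 and Pcdhac2 in each library (points, with the replicate number), by group, with the mean (line) and SD (bar); all axes start at 0. Pcdhb19 of SFN-fed cKOAstro (1.83 to 3.13 CPM) lies wholly below SFN-fed ConAstro (3.27 to 4.53 CPM), whereas Pcdhgc3 overlaps between all groups.

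Markers of other cells also differed between the SFN-fed groups. Endothelial markers were lower in SFN-fed cKOAstro in 8 of 8 cases, with a median log2 fold change of −0.82 and 6 at an unadjusted p under 0.05, and summed to 172 to 781 CPM against 485 to 776 CPM in SFN-fed ConAstro. Fibroblast markers were lower in 5 of 5 cases (median −0.62, 4 at that threshold; sums 73.1 to 154 against 117 to 169 CPM) and mural markers in 6 of 6 (median −0.46, 3 at that threshold; sums 403 to 1034 against 669 to 1119 CPM). The sums overlapped between the groups for all 3 cell types.

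Markers of oligodendrocyte precursors were lower in 5 of 5 cases (median −0.50, 1 at that threshold; sums 78.6 to 249 against 139 to 293 CPM). Markers of microglia were lower in 8 of 8 (median −0.54, 0 at that threshold), and those of oligodendrocytes were higher in 8 of 8 (median 0.28, 1 at that threshold; sums 24385 to 56876 against 21959 to 30815 CPM). Astrocyte markers were split, with 6 of 12 lower and a median of −0.01. The part of these cells in the members' values was not tested.

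Several other measures moved with the low gamma values. The non-clustered protocadherins, related cadherins that are not members of these clusters, were below 0 in 12 of 12 cases in the same comparison. Their median was −0.42, with 8 of 12 at an unadjusted p under 0.05. Pcdh1 had the smallest p among them (log2 fold change −0.52 ± 0.16). A score of transcript length, the median log2 deviation of 2638 genes with transcripts of at least 5257 bases minus that of 2640 genes with transcripts of at most 1881 bases and no protocadherin in either set, averaged 0.10 ± 0.11 in ConAstro, 0.01 ± 0.10 in cKOAstro, 0.15 ± 0.10 in SFN-fed ConAstro and −0.18 ± 0.26 in SFN-fed cKOAstro (SD). It was lowest in SFN-fed cKOAstro replicates 1 (−0.62), 4 (−0.33) and 2 (−0.26). With this score as a covariate, a setting chosen after the data were seen, the gamma median was −0.07 in place of −0.37, 16 of 22 gamma members were lower and 6 higher, and 0 of 54 members had an unadjusted p under 0.05, where 2.98% of all genes did. The group and the score overlap in this design, and what either contributes was not tested.

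**Figure D5:**
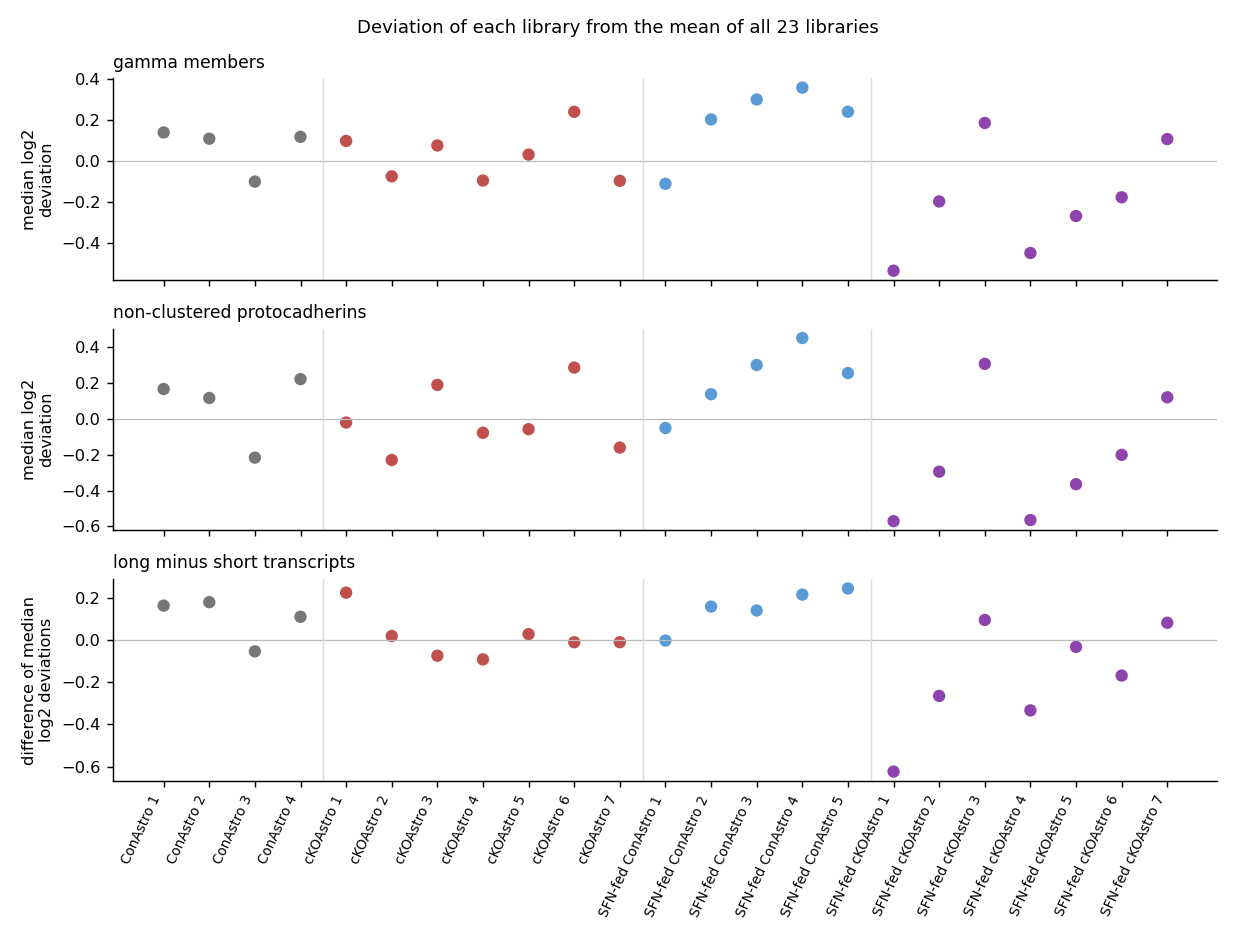
Median log2 deviation from the mean of 23 libraries for the gamma members (top) and the non-clustered protocadherins (middle), and the transcript length score (bottom), one point per library and coloured by group. SFN-fed cKOAstro replicates 1 and 4 are lowest in each panel, with length scores of −0.62 and −0.33.

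SFN-fed cKOAstro replicate 4, the library with the lowest gamma sum, also had the highest oligodendrocyte marker sum of the 23 libraries (56876 CPM, where the others lay at 35477 CPM or less), the lowest astrocyte marker sum (15556 CPM) and the lowest neuron marker sum (511 CPM). Without it, 22 of 22 gamma members were still lower, with a median of −0.34. Without SFN-fed cKOAstro replicate 1, the gamma median was −0.31. Leaving out SFN-fed cKOAstro replicate 3, the one with high gamma values, put 4 members past the adjusted threshold, namely Pcdhac2, Pcdhb19, Pcdhga1 and Pcdhgb2, where 4.22% of all genes passed. Without the 2 libraries that went against their labels, 22 of 22 gamma members were lower with a median of −0.44, and 28 members had an unadjusted p under 0.05, where 14.9% of all genes did. That count was 13 without SFN-fed ConAstro replicate 3 (14.3% of all genes) or 4 (15.6%) and 15 without replicate 5 (14.5%).

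In control mice, the SFN diet went with slightly higher values. The SFN-fed ConAstro libraries (n145, n147 or Astro) shared no series of names with ConAstro, so diet and series cannot be told apart here. In SFN-fed ConAstro against ConAstro, 5 of 54 tested members (9.3%) had an unadjusted p under 0.05 and all 5 were higher, against 6.54% of all genes in either direction and 3.54% higher. No member passed the adjusted threshold, and no gene did (0%). The fold change was above 0 for 19 of 22 gamma members (median 0.12) and 18 of 22 beta members (median 0.14), against 48.4% of all genes, and the median over 10 alpha members was 0.31.

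Pcdhb5 had the smallest p and its groups did not overlap. It measured 2.26, 1.74, 1.81 and 2.02 CPM in ConAstro and 2.73, 3.02, 2.69, 2.92 and 2.54 CPM in SFN-fed ConAstro. The log2 fold change was 0.50 ± 0.13 (unadjusted p = 0.00267, adjusted p = 0.762). Pcdhb9 was the other member whose groups did not overlap, with 4.47, 4.31, 4.20 and 3.95 CPM in ConAstro and 4.48, 4.82, 5.18, 5.55 and 4.66 CPM in SFN-fed ConAstro, and its log2 fold change was 0.22 ± 0.10. Groups lay wholly higher for 1.01% and wholly lower for 0.921% of all genes.

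Pcdhgb2 (0.41 ± 0.15), Pcdhga4 (0.35 ± 0.13), Pcdhac2 (0.86 ± 0.31) and Pcdhb19 (0.34 ± 0.15) were the other members with an unadjusted p under 0.05, and Pcdha5, second among alpha members, had −0.59 ± 0.34. Pcdhgb2 measured 9.98, 11.4, 8.45 and 10.5 CPM in ConAstro and 9.33, 14.5, 15.2, 13.9 and 14.4 CPM in SFN-fed ConAstro, and only replicate 1 of the latter fell among the controls. That replicate is the one whose Aldh7a1 went against its label. Without it, 13 members had an unadjusted p under 0.05, 7 of them gamma, where 8.41% of all genes did, and the gamma median was 0.17. The count of 5 became 2 without ConAstro replicate 2 (5.29% of all genes), and 3 without ConAstro replicate 3 (7.05%) or SFN-fed ConAstro replicate 4 (6.34%).

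Markers of vessel-associated cells were higher in this comparison too. Endothelial markers were higher in 8 of 8 cases (median 0.62, 3 at an unadjusted p under 0.05), fibroblast markers in 5 of 5 (median 0.51, all 5 at that threshold) and mural markers in 6 of 6 (median 0.36, 2 at that threshold). The endothelial sums were 225 to 600.0 CPM in ConAstro and 485 to 776 CPM in SFN-fed ConAstro, and the mural sums 503 to 839 and 669 to 1119 CPM. Their part in the members' values was not tested.

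Among cKOAstro, SFN-fed libraries had lower gamma values than those without SFN. Of the series of names, only Astro occurred in both groups, so diet and series cannot be fully told apart. In SFN-fed cKOAstro against cKOAstro, 8 of 54 tested members (14.8%) had an unadjusted p under 0.05 and all 8 were lower, against 10.9% of all genes, 5.38% higher and 5.5% lower. The adjusted threshold was passed by 0 members and by 0% of all genes. The fold change was below 0 for 21 of 22 gamma members (median −0.21) and 15 of 22 beta members (median −0.06), where 51.5% of all genes lay above 0, and the alpha median was −0.02. No tested member had groups that did not overlap, against 0.0651% of all genes wholly higher and 0.0296% wholly lower.

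Pcdhb19 again had the smallest p, at −0.51 ± 0.14 (unadjusted p = 0.00279, adjusted p = 0.459). It ran from 3.05 through a median of 3.29 to 4.46 CPM in cKOAstro, and its range there overlapped that of SFN-fed cKOAstro only between 3.05 and 3.13 CPM. Pcdhgb4 (−0.36 ± 0.12), Pcdhgb7 (−0.33 ± 0.12) and Pcdhb16 (−0.41 ± 0.15) followed, and the first alpha members were Pcdha11 (−0.55 ± 0.36) and Pcdhac2 (−0.29 ± 0.28). Pcdhgc3 had −0.18 ± 0.16 and Pcdhgc5 −0.23 ± 0.17. Without the 2 libraries against their labels the gamma median was −0.21, and without SFN-fed cKOAstro replicate 1 it was −0.13. The count of 8 became 5 without cKOAstro replicate 5 (6.92% of all genes) and 14 without SFN-fed cKOAstro replicate 3 (18.1%). With the length score as a covariate it was 1, where 3.51% of all genes passed, and the gamma median was −0.06 with 21 of 22 members lower. Mural markers were lower in 5 of 6 cases (median −0.39, 3 at an unadjusted p under 0.05) and oligodendrocyte markers higher in 8 of 8 (median 0.32, 1 at that threshold), and their part was not tested.

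Against untreated controls, SFN-fed cKOAstro also had lower gamma values. The only series of names found in both groups was n143. Here 9 of 54 tested members (16.7%) had an unadjusted p under 0.05 and all 9 were lower, against 8.67% of all genes, 4.01% higher and 4.66% lower, and 0 members and 0% of all genes passed the adjusted threshold. The fold change was below 0 for 22 of 22 gamma members (median −0.27) and 14 of 22 beta members (median −0.11), where 47.6% of all genes lay above 0, with an alpha median of −0.14. The 9 members became 2 without ConAstro replicate 1 (6.01% of all genes) or 4 (5.96%), and 3 without ConAstro replicate 2 (5.51%). Omitting the 1 library here whose Aldh7a1 went against its label left 5 members (5.47%) and a gamma median of −0.25.

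Other settings moved this comparison more. With the length score as a covariate the gamma median was −0.021, 12 of 22 gamma members were lower, 0 members had an unadjusted p under 0.05 (2.5% of all genes), and Pcdhgc3 (0.10) and Pcdhgc4 (0.055) lay above 0. With limma-voom 21 members had an unadjusted p under 0.05, where 31.5% of all genes did. Oligodendrocyte markers were higher in 8 of 8 cases (median 0.32, 0 at that threshold) and microglia markers lower in 8 of 8 (median −0.40, 0 at that threshold), and their part was not tested.

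Pcdhga10 was the only tested member whose groups did not overlap, where 0.448% of all genes lay wholly lower. It measured 13.9, 13.2, 13.1 and 13.6 CPM in ConAstro, all above the highest SFN-fed cKOAstro library at 13.0 CPM, and its log2 fold change was −0.36 ± 0.13 (unadjusted p = 0.0205, adjusted p = 0.557). Pcdhga8 (−0.37 ± 0.14), Pcdhb2 (−0.77 ± 0.30), Pcdhb21 (−0.60 ± 0.25) and Pcdha5 (−0.83 ± 0.36) came next, while Pcdha1, at few counts, had 0.89 ± 0.83. Fitted on the numbered library names alone, the gamma median was −0.15 and 19 of 22 members were lower.

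The interaction asked whether the genotype difference itself differed with diet. The series of names were spread unevenly over the 4 groups, so this term and series cannot be fully told apart. Of 55 tested members, 10 (18.2%) had an unadjusted p under 0.05 and all 10 were below 0, against 7.32% of all genes, 4.36% above and 2.96% below 0. No member and no gene (0%) passed the adjusted threshold. The interaction term was below 0 for 22 of 22 gamma members (median −0.33) and 19 of 22 beta members (median −0.23), where 49.4% of all genes lay above 0, and the median of 11 alpha members was −0.61. Without the 3 libraries against their labels, the gamma median was −0.40 and 15 members had an unadjusted p under 0.05, where 9.84% of all genes did. The count was 16 without SFN-fed ConAstro replicate 1 alone (9.97%) and 17 without SFN-fed cKOAstro replicate 3 (12.7%).

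With the length score as a covariate the gamma median of the interaction was −0.11, 20 of 22 gamma members were below 0, and 6 members had an unadjusted p under 0.05 (3.58% of all genes). Mural markers were below 0 in 6 of 6 cases (median −0.67, 3 at an unadjusted p under 0.05) and fibroblast markers in 5 of 5 (median −0.78, 3 at that threshold). Endothelial markers were below 0 in 8 of 8 (median −0.29, 0 at that threshold). The part of these cells was not tested.

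Pcdhb19 had the smallest p of any member in any comparison, with an interaction term of −0.85 ± 0.21 (unadjusted p = 0.000506, adjusted p = 0.673). Its group means were 2.96 ± 0.418 CPM in ConAstro, 3.47 ± 0.524 in cKOAstro, 3.77 ± 0.519 in SFN-fed ConAstro and 2.44 ± 0.486 in SFN-fed cKOAstro (SD). The libraries of cKOAstro and ConAstro overlapped. Neither cKOAstro nor SFN-fed ConAstro shared a series of names with ConAstro. The order of these means therefore cannot be assigned to deletion or diet. With the transcript length score as a covariate the term was −0.71 ± 0.21. Both fits used the same libraries, and the difference between them was not tested. Pcdhgb2 (−0.65 ± 0.19), Pcdhb5 (−0.56 ± 0.18), Pcdhgb7 (−0.52 ± 0.17) and Pcdhac2 (−1.16 ± 0.44) followed, and Pcdha12 had −0.61 ± 0.41.

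Genes that act with or lie beside the clusters gave a contrast of size. Of 20 tested genes of promoter choice and chromatin, 5 were lower and 1 higher at an unadjusted p under 0.05 in SFN-fed cKOAstro against SFN-fed ConAstro, with a median log2 fold change of −0.07, where 8.89% of all genes were lower and 11.4% higher. Smchd1, which represses protocadherin promoters, had the smallest p (−0.25 ± 0.092), and Atf7ip had the largest difference of those 6 (−0.41 ± 0.15). Ctcf lay between 60.8 and 82.6 CPM in all 23 libraries. In the other comparisons this list had at most 2 genes at that threshold.

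Of 23 genes of partners and processing, which include the kinases, the actin-regulating WAVE complex and the secretase subunits that clustered protocadherins meet at the membrane, 2 were lower and 1 higher in the same comparison (median −0.06), a smaller share than the 20.3% of all genes. The lower genes were the WAVE subunit Wasf2 (−0.31 ± 0.11) and Nlgn1 (−0.37 ± 0.13), a synaptic adhesion protein bound by gamma protocadherins. In SFN-fed ConAstro against ConAstro, 3 genes of this list were higher, where 3.54% of all genes were, Wasf2 among them (0.15 ± 0.054).

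Genes beside the clusters lay higher in this comparison. Of 10 tested neighbours, 5 were higher and 0 lower at an unadjusted p under 0.05 in SFN-fed cKOAstro against SFN-fed ConAstro, with a median of 0.15, where 11.4% of all genes were higher. Hars, a histidyl-tRNA synthetase gene upstream of the alpha cluster, had 0.26 ± 0.073 and Zmat2, between it and the alpha cluster, 0.29 ± 0.084. The neighbours' sum was 254 ± 6.41 CPM in SFN-fed ConAstro and 293 ± 23 CPM in SFN-fed cKOAstro (SD). In the interaction, all 10 tested neighbours were above 0, where 22 of 22 gamma members were below 0.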

How the data were processed

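Astrocytes of the cerebral cortex were captured with ACSA-2 beads, poly(A) RNA was made into libraries with a kit not named as directional, and paired ends were sequenced. The authors aligned reads to mm10 with STAR and deposited raw counts per gene symbol. The STAR version, annotation and strand setting are not given in the sources used here. STAR's gene counting keeps uniquely mapped reads that fall in 1 gene, so reads in exons shared by members are lost.

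From the deposited counts, edgeR 4.0.16 in R 4.3.3 gave TMM factors and the quasi-likelihood test, fitted on the libraries of each pair of groups, and on all 23 for the interaction of genotype and diet. Genes were kept by filterByExpr (minimum count 10, minimum total 15). Benjamini-Hochberg adjustment took in every tested gene, and calls were made at 0.05. Levels are CPM over all 23 libraries, and fold changes are log2 with the SE. Levels per kb were divided by exon bases that belong to 1 member in GENCODE. Simulated counts with known changes were used to check the scripts. Alternatives were DESeq2 1.42.0, limma 3.58.1 (voom with quality weights), another scaling, no filter, all groups in 1 fit, a replicate block, the series of library names, thinned counts and libraries left out. The series settings only split numbered names from Astro names and did not separate the numbered series from each other. The transcript length score was added after the data were seen.

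Library totals of 46890715 to 391701247 counts left counting error small for gamma members and large for alpha members. Groups were taken from the sample titles. The labels do not say whether libraries of a group came from separate animals, but the paper counted n of RNA-seq as animals. The p-values measure the spread between these libraries. Named genes were the C-type members, the 3 with the highest level per kb in each cluster, the 2 of each cluster with the smallest p in a comparison, and the gene of each list with the smallest p. Others that are named were chosen after their values were seen. The members and gene lists were chosen with earlier results of these data known. No sequences are printed.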

Additional observations from a re-analysis of the deposited data

Results flagged for a closer look

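Of 124 sets of 4, 5 or 7 libraries tested for a value far from the rest, 7 held one, where chance gives about 6 (5%). In 5 of the 7 the library was ConAstro replicate 3. Its gamma members summed to 669 CPM, where the other 3 ConAstro libraries lay between 790.2 and 805 CPM, and its non-clustered protocadherins summed to 868 CPM, where the others lay between 1186 and 1239.8 CPM. Pcdhgc3 stood at 358 CPM in it, against 427 to 435 CPM, and Pcdhgc4 at 9.00 CPM, against 11 to 11.3 CPM. Pcdha12 was high in the same library, at 1.16 CPM against 0.475 to 0.511 CPM. The other 2 cases were Pcdha5 in SFN-fed ConAstro replicate 5, at 0.415 CPM against 0.174 to 0.243 CPM, and Pcdhgb2 in SFN-fed ConAstro replicate 1, whose Aldh7a1 went against its label, at 9.33 CPM against 13.9 to 15.2 CPM. The interaction of genotype and diet called 0 members by edgeR at an adjusted p of 0.05, and 10 members had an unadjusted p under 0.05, where 7.32% of all genes did.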

How the results depend on the processing

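Of 655 values of named members recomputed under other settings, 637 kept their direction, and of 195 cluster medians 189 moved by less than the spread between libraries. That spread, an SD, was wide beside the medians. For gamma members between the SFN-fed groups it was 0.24, where the median was −0.37. A median could thus change much in size and still count among the 189, so this count does not show that the medians held. Between SFN-fed cKOAstro and SFN-fed ConAstro, members past the adjusted threshold were 0 with edgeR, 3 with DESeq2 and 22 with limma-voom, and 0 to 4 with 1 library left out. The cause of these differences was not tested.

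Counts of members with an unadjusted p under 0.05 moved by over 1.5 times as follows, with the share of all genes in brackets. In cKOAstro against ConAstro it was 3 (3.74%), 1 with thinned counts (3.41%) and 1 with the length score (3.92%). Between the SFN-fed groups it was 25 (20.3%), 16 with the name series as a covariate (15.9%) and 0 with the length score (2.98%). In SFN-fed ConAstro against ConAstro it was 5 (6.54%), 10 with limma-voom (9%), and 13 with numbered names alone (8.41%), with the name series (8.4%) and without the library against its label (8.41%). In SFN-fed cKOAstro against cKOAstro it was 8 (10.9%) and 1 with the length score (3.51%). Against ConAstro, SFN-fed cKOAstro had 9 (8.67%), 21 with limma-voom (31.5%), 3 with numbered names (4.51%), 2 with the name series (4.52%), 5 without the library against its label (5.47%) and 0 with the length score (2.5%). In the interaction it was 10 (7.32%), 17 with limma-voom (23.5%), 16 with numbered names (10.2%) and 6 with the length score (3.58%). With 1 library left out the counts ran, in that order, from 1 to 4, 13 to 28, 2 to 13, 5 to 14, 2 to 13 and 9 to 17. The shares of all genes ran from 2.78% to 8.98%, 14.3% to 27.8%, 4.38% to 8.41%, 6.6% to 18.1%, 5.47% to 16.3% and 5.17% to 12.7%.

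With the length score, the medians in SFN-fed cKOAstro against SFN-fed ConAstro were 0.24 for alpha and −0.069 for gamma, the gamma median against ConAstro was −0.021, and those of the interaction were −0.16 for alpha and −0.11 for gamma. With numbered names the beta median of the interaction was −0.38.

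Some members changed sign, and not all of them were near 0 in the main fit. There, Pcdhac1 was −0.40 in cKOAstro against ConAstro and −0.49 in SFN-fed cKOAstro against ConAstro. Between the SFN-fed groups, Pcdhgc3 was −0.27 and Pcdhgc4 −0.33 in that fit. The values under other settings were as follows. In cKOAstro against ConAstro, Pcdhac1 was 0.17 with limma-voom. Pcdhgc3 was 0.015 with numbered names and 0.00055 with the name series. Pcdhgc4 was 0.087 with numbered names, 0.074 with the name series, 0.0026 without the library against its label and 0.042 with the length score. Between the SFN-fed groups, the length score gave 0.085 for Pcdhgc3 and 0.038 for Pcdhgc4. For SFN-fed cKOAstro against cKOAstro, Pcdhac1 was 0.0014 with limma-voom and 0.19 with the length score. In SFN-fed cKOAstro against ConAstro, limma-voom gave 0.17 for Pcdhac1 and 0.090 for Pcdhac2. Pcdhac2 was 0.12 with numbered names and 0.13 with the name series, and the length score gave 0.26 for Pcdhac2, 0.10 for Pcdhgc3 and 0.055 for Pcdhgc4.

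With 1 library left out, Pcdhac1 ran from −0.75 to 0.13 in cKOAstro against ConAstro, from −0.23 to 0.040 in SFN-fed cKOAstro against cKOAstro, from −0.83 to 0.057 in SFN-fed cKOAstro against ConAstro and from −0.074 to 0.82 in SFN-fed ConAstro against ConAstro. Pcdhac2 ran from −0.29 to 0.13 in SFN-fed cKOAstro against ConAstro. Pcdhgc3 ran from −0.070 to 0.038 and Pcdhgc4 from −0.11 to 0.025 in cKOAstro against ConAstro.

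Groups share replicate numbers, but the deviations of 24 same-numbered pairs correlated at −0.21 to 0.34 and 6 exceeded 0.1, so the numbers were not taken as pairs. With the replicate block the counts of members with an unadjusted p under 0.05 were 1 in SFN-fed ConAstro against ConAstro (3.96% of all genes) and 3 in SFN-fed cKOAstro against ConAstro (5.74%). The count was 2 in cKOAstro against ConAstro (3.87%) and 23 between the SFN-fed groups (22%). It was 8 in SFN-fed cKOAstro against cKOAstro (8.76%) and 10 in the interaction (5.79%). Low counts limit what can be said of alpha members.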
